A study of Rattus norvegicus with 17 samples.

Results

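The 5 genes described here are those that the study's table of cell-type markers lists for astrocytes, and they were taken by identifier from a marker table of 20 genes. The deposited table lists 32494 genes, of which 22664 were not at 0 in all libraries and were tested. They are Aldh1l1 (ENSRNOG00000047023), Gfap (ENSRNOG00000002919), Gja1 (ENSRNOG00000000805), Slc1a3 (ENSRNOG00000016163) and Pdgfrb (ENSRNOG00000018461). All 5 lay above 0 in every library and averaged at least 1 CPM (the share of a library's total scaled to a fixed size, approximated from the deposited values), as did 13679 genes in all. The study asked how far hippocampal tissue of untreated rats differs between laboratories that follow nearly the same protocol. RNA-Seq was done on whole hippocampi of both hemispheres from male SAS Sprague Dawley rats without any intervention, with 1 library per rat. There were 5 rats at Site #1 (Legacy), 6 at Site #2 (Trinity) and 6 at Site #3 (UAB).

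Rats of Sites #1 and #2 came from Charles River at 8.3 weeks of age, were housed singly and were killed 18 to 19 days after arrival, and their hippocampi were dissected in saline. Rats of Site #3 came from Envigo (Harlan) at 8 weeks, shared cages and were killed after 27 days, and the tissue was dissected in bubbled artificial cerebrospinal fluid. Vendor, chow, housing, days to sacrifice and buffer went together at Site #3, so their parts in any difference from Site #3 cannot be told apart. Sites #1 and #2 differed as well, in cage ventilation and size, bedding, chow supplier, and distance and time of transit. The parts of these in a difference between Sites #1 and #2 cannot be told apart either. The deposited values are on a log2 scale, already normalized between libraries, and hold no counts, so the number of reads behind each value cannot be read from them.

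Astrocytes are the glial cells that wrap synapses and blood vessels; they clear glutamate and potassium and are joined into networks by gap junctions. In the hippocampus they line the synaptic layers, and their end-feet cover the capillaries next to endothelial cells and pericytes. Of the 5 genes, Aldh1l1 encodes a cytosolic folate enzyme, Gfap the intermediate filament of the astrocyte skeleton, Gja1 the gap junction protein connexin 43 and Slc1a3 the glutamate transporter GLAST. Pdgfrb encodes the receptor for platelet-derived growth factor B and is a gene of pericytes and other mural cells in most brain atlases.

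None of the 5 genes passed the test between any pair of sites, where passing means an adjusted p under 0.05 in limma after Benjamini-Hochberg adjustment over all 22664 genes. The site means of each gene lay close together, and the libraries of every pair of sites overlapped for every gene. In whole tissue, fewer cells of a type and less RNA per cell cannot be told apart, so these values describe the marker RNA of the tissue and not a number of astrocytes.

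Aldh1l1 was the marker with the smallest p for a difference among the sites. Its 5 values at Site #1 were 10.08, 10.004, 10.21, 10.19 and 10.27 on the log2 scale. At Site #2 they ran from 9.89 over a median of 9.95 to 10.08, and at Site #3 from 9.92 over a median of 9.94 to 10.09. Replicates 3, 4 and 5 of Site #1 lay above the highest library elsewhere, whereas replicates 1 and 2 of Site #1 lay inside the range of both other sites. The mean was 10.15 ± 0.108 (SD, n = 5) at Site #1, 9.96 ± 0.065 (n = 6) at Site #2 and 9.97 ± 0.0662 (n = 6) at Site #3. Site #2 minus Site #1 was -0.19 (95% interval -0.30 to -0.076, adjusted p = 0.641 by limma with Benjamini-Hochberg adjustment), a ratio of 0.878. Site #3 minus Site #1 was -0.18 (-0.29 to -0.072, limma adjusted p = 0.285 after Benjamini-Hochberg adjustment). Sites #2 and #3 differed by 0.0053 (-0.079 to 0.089).

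Gfap, the filament gene, had its lowest mean at Site #2. Its values at Site #1 were 15.24, 15.29, 15.18, 15.20 and 15.29. They ran from 15.02 over a median of 15.09 to 15.30 at Site #2 and from 15.05 over a median of 15.30 to 15.43 at Site #3. Replicate 6 of Site #2 lay among the values of Site #3, and replicate 2 of Site #3 lay near the low end of Site #2, so Sites #2 and #3 overlapped. Site #3 minus Site #2 was 0.16 (95% interval 0.027 to 0.29), a ratio of 1.12, with an adjusted p of 0.240 by limma with Benjamini-Hochberg adjustment. Site #2 minus Site #1 was -0.12 (-0.23 to -0.011), and Site #3 minus Site #1 was 0.041 (-0.084 to 0.17). With 1 library left out the last ran from 0.012 to 0.087.

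Gja1, the gap junction gene, had site means of 14.11 ± 0.180 at Site #1, 14.18 ± 0.0937 at Site #2 and 14.28 ± 0.0536 at Site #3. The values at Site #1 were 14.11, 14.14, 13.95, 14.39 and 13.95. Those at Site #2 ran from 14.02 over a median of 14.19 to 14.31, and those at Site #3 from 14.19 over a median of 14.30 to 14.32. Site #1 held both the lowest libraries, replicates 3 and 5, and the highest, replicate 4, so its range spanned both other sites. Site #3 minus Site #1 was 0.17 (95% interval 0.012 to 0.32, adjusted p = 0.569 by limma with Benjamini-Hochberg adjustment), and Site #3 minus Site #2 was 0.10 (0.0070 to 0.19).

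Slc1a3, the glutamate transporter gene, showed site means of 15.16 ± 0.124, 15.06 ± 0.127 and 15.15 ± 0.0609 at Sites #1, #2 and #3. At Site #1 the values were 15.09, 15.24, 15.14, 15.32 and 15.00. They ran from 14.84 over a median of 15.07 to 15.22 at Site #2 and from 15.07 over a median of 15.16 to 15.24 at Site #3. Replicate 2 of Site #2 was the lowest library of the series, and all 3 intervals of the differences between sites held 0. Site #2 minus Site #1 was -0.096 (95% interval -0.25 to 0.059), Site #3 minus Site #1 -0.011 (-0.13 to 0.11) and Site #3 minus Site #2 0.085 (-0.033 to 0.20). Without replicate 2 of Site #2 the first was -0.050 and the last 0.039.

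Pdgfrb had the largest SD of the 5 genes when pooled over the sites, although Gfap had the larger SD at Site #3. Its values were 10.11, 10.26, 10.43, 10.36 and 10.65 at Site #1. They ran from 10.004 over a median of 10.23 to 10.43 at Site #2 and from 10.13 over a median of 10.25 to 10.42 at Site #3. The site means of 10.36 ± 0.203, 10.23 ± 0.142 and 10.27 ± 0.120 differed by less than the spread within Site #1. Within sites the SD of Pdgfrb was 0.155, above that of 87.7% of the 13679 expressed genes. The share of expressed genes with a smaller SD was 72.5% for Gja1, 66.8% for Slc1a3, 62.1% for Gfap and 39.5% for Aldh1l1. For Pdgfrb, Site #2 minus Site #1 was -0.13 (95% interval -0.34 to 0.077), and the other intervals held 0 as well. Without replicate 5 of Site #1 this difference was -0.056, and Site #3 minus Site #1 went from -0.095 to -0.022.

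**Figure D1:**
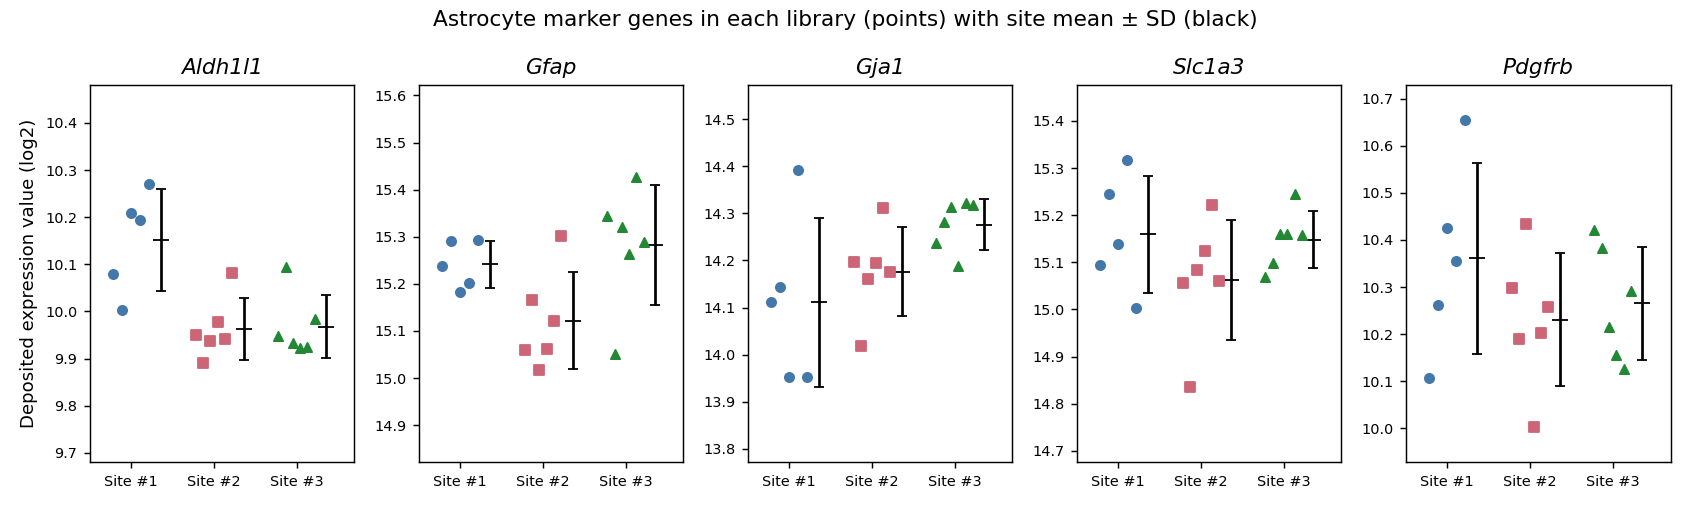
Deposited log2 value (y axis) of each marker gene in each library, by site (x axis), with 1 point per rat and the site mean ± SD in black; every panel spans the same number of log2 units. The libraries of the sites overlap for all 5 genes, and the highest mean lies at Site #1 for Aldh1l1, Slc1a3 and Pdgfrb and at Site #3 for Gfap and Gja1.

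The order of the sites thus differed between the markers. Aldh1l1, Slc1a3 and Pdgfrb had their highest mean at Site #1, then Site #3, then Site #2. Gfap was highest at Site #3 and lowest at Site #2, and Gja1 was highest at Site #3 and lowest at Site #1. Neighbours in these orders did not pass the test. The mean of all 5 genes was higher at Site #3 than at Site #2, by 0.0053 for Aldh1l1 to 0.16 for Gfap, and this direction turned for Aldh1l1 with median centring (-0.019) and with quantile normalization (-0.0057). It also turned for Pdgfrb without replicate 4 of Site #2 (-0.011). For Slc1a3 the order of Sites #1 and #3 turned with quantile normalization (0.023) and in 3 of 11 fits with 1 library left out.

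In counts, 0 of 5 markers passed for Site #1 vs Site #2 in limma after Benjamini-Hochberg adjustment, where 0% of all genes passed. For Site #1 vs Site #3 the count was 0 of 5, beside 0.101% of all genes, and for Site #2 vs Site #3 it was 0 of 5, beside 1.05%. At an unadjusted p under 0.05 there were 2 of 5 markers in each pair of sites, beside 6.74%, 8.17% and 14.8% of all genes. They were Aldh1l1 and Gfap, then Aldh1l1 and Gja1, then Gfap and Gja1. The pairs share libraries, so these counts are not independent. No marker had libraries without overlap, against 0.878%, 1.38% and 1.95% of all genes in the same 3 pairs. In the F test over the sites 0 of 5 markers passed by limma, beside 0.507% of all genes. Aldh1l1 had an adjusted p of 0.0986 in that limma test after Benjamini-Hochberg adjustment, at rank 368 of 22664 genes by p, and Gfap had 0.315. At an unadjusted p under 0.05 the F test held Aldh1l1 and Gfap, 2 of 5, against 12.4% of all genes.

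**Figure D2:**
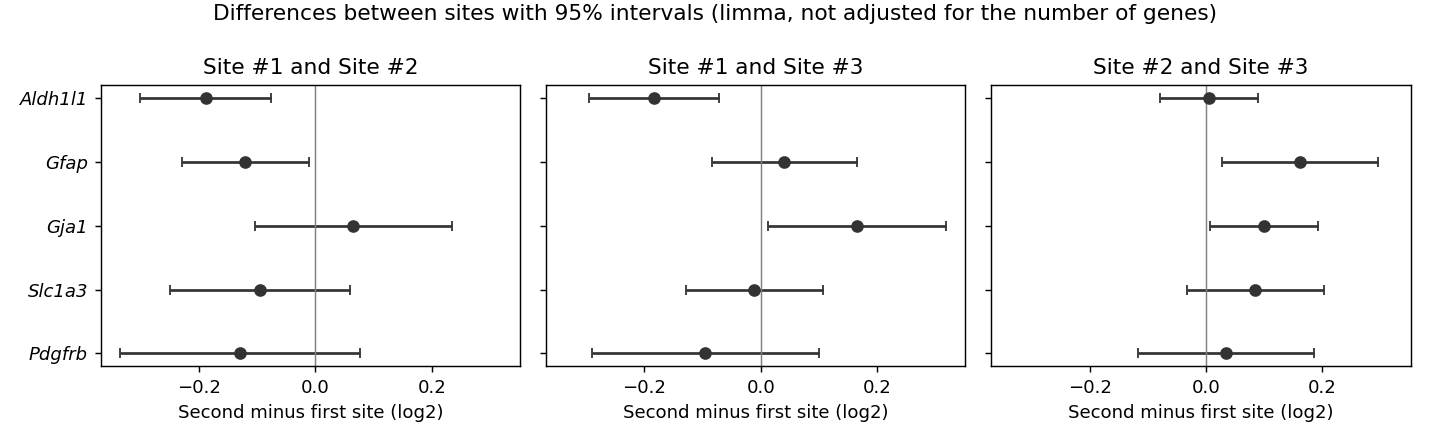
Difference between the second and the first site of each pair (x axis, log2 units) for each marker (y axis), with 95% intervals from limma that are not adjusted for the number of genes. Aldh1l1 lies at -0.19 and -0.18 in the pairs with Site #1 and at 0.0053 between Sites #2 and #3; no difference passed after adjustment.

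The other 17 astrocyte genes were compared in the same way. They comprise 7 membrane genes such as the bicarbonate transporter Slc4a4, 5 secreted proteins such as angiotensinogen (Agt), and 5 transcription and signalling genes such as Sox9. None of the 17 passed by limma with Benjamini-Hochberg adjustment in any pair of sites, where 0%, 0.101% and 1.05% of all genes did. A count of 0 lies near those shares. The order is Site #1 vs Site #2, Site #1 vs Site #3 and Site #2 vs Site #3. At an unadjusted p under 0.05 there were 6.74%, 8.17% and 14.8% of all genes, and 3, 2 and 1 of the 17. The cystine transporter gene Slc7a11, chosen after its values were seen, was among them in both pairs with Site #1, at 0.22 and 0.20 above Site #1. Their median difference was -0.016, 0.0015 and 0.046 in the 3 pairs, and that of all genes -0.00010, 0.00020 and 0.00015. Over all lists of cell types, 0 of 53 genes passed by limma in any pair, with 10, 7 and 10 of them at an unadjusted p under 0.05. These lists also hold 6 microglia, 4 neuron, 1 oligodendrocyte, 4 widely expressed, 1 pericyte, 8 endothelial, 5 basement membrane and fibroblast and 2 choroid plexus genes. Beside the 6.74%, 8.17% and 14.8% of all genes, 2, 0 and 4 of the 8 endothelial genes had an unadjusted p under 0.05 in the 3 pairs. Of the 6 microglia genes 1, 2 and 2 did, and of the 4 neuron genes 2, 1 and 1. The remaining lists held none. The smallest adjusted p among them was 0.0550, for the microglia gene Csf1r between Sites #2 and #3 by limma with Benjamini-Hochberg adjustment.

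The markers were next compared between rats of one site, after subtraction of the site means, to see whether genes of one listed cell type vary together. Gja1 and Slc1a3 did so most closely, with a Pearson r of 0.805 and a Spearman rho of 0.757 over 17 rats. In each site the rat with the highest Gja1 was also the rat with the highest Slc1a3: replicate 4 at Site #1, replicate 5 at Site #2 and replicate 5 at Site #3. At Site #2 replicate 2 was lowest in both. A rat 1 log2 unit higher in Gja1 was 0.75 ± 0.154 (SE) units higher in Slc1a3.

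The r was 0.841 among the 5 rats of Site #1, 0.970 among the 6 of Site #2 and 0.436 among the 6 of Site #3, where Gja1 spanned the narrowest range. Without the 2 libraries farthest from the median of Gja1 the r was 0.813, and without the 2 farthest from the median of Slc1a3 it was 0.654. By limma with Benjamini-Hochberg adjustment over all other genes the pair did not pass (adjusted p = 0.340 for Slc1a3 on Gja1 and 0.219 for Gja1 on Slc1a3, unadjusted p = 0.000186 and 0.000154). Leaving out 1 library at a time gave an r from 0.763 to 0.857. Without a term for the site it was 0.636.

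**Figure D3:**
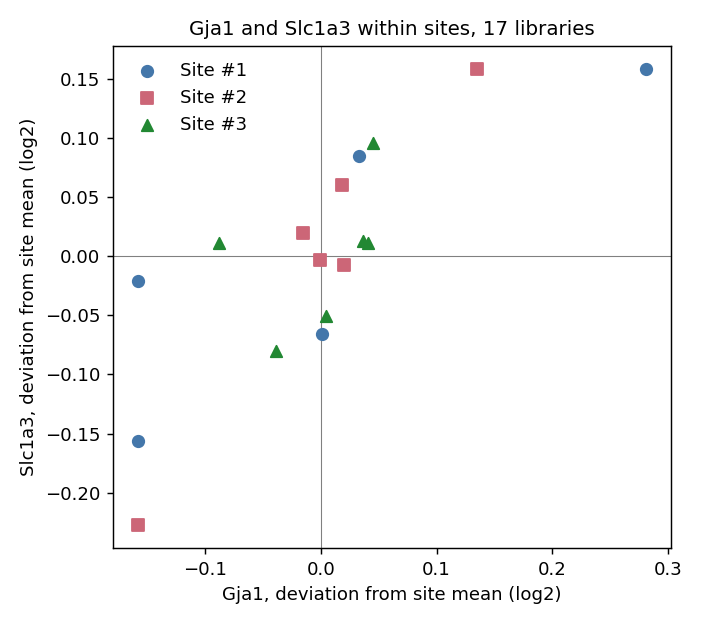
Deviation of Slc1a3 from its site mean (y axis, log2 units) against that of Gja1 (x axis, log2 units) in 17 libraries, with 1 point per rat and the site as color and shape. The r over all points is 0.805.

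The 250 bases before the start site of Gja1 and of Slc1a3 are shown, from the RefSeq promoter table of build GRCr8. Gja1 lies on the plus strand at chr20:36302314-36302563. Slc1a3 lies on the minus strand at chr2:59557809-59558058, for the first of 3 start sites in that table. Capitals mark the motifs found. In Gja1 they are an AP-1 motif that begins 58 bases before the start, and in Slc1a3 the letters of a single arm of the palindromic nuclear factor I motif, without the other arm, which begin 84 bases before it.
Gja1: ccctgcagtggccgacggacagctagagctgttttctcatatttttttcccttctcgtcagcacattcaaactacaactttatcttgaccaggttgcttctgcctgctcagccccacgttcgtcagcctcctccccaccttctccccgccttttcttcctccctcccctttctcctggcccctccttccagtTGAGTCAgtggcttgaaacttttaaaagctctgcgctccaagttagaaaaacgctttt
Slc1a3: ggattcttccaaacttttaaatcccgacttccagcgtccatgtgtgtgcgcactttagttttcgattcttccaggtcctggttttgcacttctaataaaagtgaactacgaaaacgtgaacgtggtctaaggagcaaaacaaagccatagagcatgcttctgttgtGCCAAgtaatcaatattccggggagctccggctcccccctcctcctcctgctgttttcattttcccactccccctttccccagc

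The motifs were searched on both strands of 33469 windows of that length. The TATA box TATAAA occurs in 12.9% of them, the CCAAT box in 34.0%, the GC box GGGCGG in 30.5%, the AP-1 motif TGANTCA in 6.34%, the STAT motif TTCNNNGAA in 7.67% and TTGGC, the single arm of a nuclear factor I site, in 40.3%. The second and the last can overlap in their letters. Gja1 and Slc1a3 shared none of them. Aldh1l1 held the CCAAT box at 2 places and the GC box at 2, and Gfap held none. A match of letters is a description of the window. Windows were found for 4 of the 5 genes, and none was printed for Pdgfrb.

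The genes with a symbol most like Gja1 were Asph, an aspartate beta-hydroxylase (r = 0.859, rank 1 of 13678), and, after Slc1a3 at rank 7, the sphingosine-1-phosphate receptor gene S1pr1 (r = 0.781, rank 11). S1pr1 was also near the top for Slc1a3 (r = 0.835, rank 9), followed by Gja1 at rank 13 and the prostaglandin reductase gene Ptgr2 (r = 0.789, rank 19). Genes without a symbol in the tables used held the other ranks, led for Slc1a3 by ENSRNOG00000018494 (r = 0.890). Those tables gave a symbol to only 954 of the 13679 expressed genes, so closer genes may have names not seen here. No gene passed with either marker: 0% of 22663 genes were called with Gja1 and 0% with Slc1a3 in limma after Benjamini-Hochberg adjustment, and 6.35% and 8.29% had an unadjusted p under 0.05.

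Among the other 17 astrocyte genes, 13 had a positive r with Gja1 (median 0.204) and 13 with Slc1a3 (median 0.115), and over all genes the medians were 0.00337 and 0.00198. The membrane genes lay highest, with 6 of 7 positive and medians of 0.410 and 0.316. Chosen after their values were seen, Cldn10, a claudin gene, had r = 0.574 with Gja1 and 0.588 with Slc1a3, and Slc4a4 had 0.627 and 0.546. The receptor gene Gpr37l1 had r = 0.489 with Gja1 and 0.681 with Slc1a3. Against this run, the thrombospondin gene Thbs4 had r = -0.507 with Gja1 and -0.673 with Slc1a3, although it averaged under 1 CPM and spanned only 0.13 log2 units over all libraries. The glycine transporter gene Slc6a9 had r = -0.472 and -0.495. None of these 17 genes passed with either marker. The summed level of the membrane genes, of which Gpr37l1 is the most abundant, ran from 14.38 in replicate 2 of Site #2 to 14.59 in replicate 5 of Site #3. That of the secreted genes, led by Ptn, ran from 14.49 in the same lowest library to 14.67 in replicate 4 of Site #1. That of the transcription and signalling genes, led by Notch1, ran from 11.70, again in replicate 2 of Site #2, to 11.93, and none of the 17 genes was at 0. Replicate 2 of Site #2 was thus the lowest library in all 3 lists, in Slc1a3 and in Aldh1l1. In the secreted list it lay barely below replicate 1 of Site #3 (14.493 and 14.495). In the transcription and signalling list the next library, replicate 4 of Site #2, was close as well (11.71).

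Gfap had no steady relation to the other markers. Its r was -0.192 with Aldh1l1, -0.0589 with Gja1, -0.0241 with Slc1a3 and -0.175 with Pdgfrb. The r with Aldh1l1 was 0.633 over the 6 rats of Site #2 and -0.885 over the 6 of Site #3, and it ran from -0.550 to 0.180 with 1 library left out. Centring each library on Cyfip1, Rac1, Snx6 and Actr3, the widely expressed genes of the marker table, gave r = 0.268 with Aldh1l1 and 0.237 with Pdgfrb. Replicate 5 of Site #3 was the highest in Gfap and also in Gja1 of that site, whereas replicate 2 of Site #3 was the lowest there in Gfap and the highest in Aldh1l1. The genes with a symbol most like Gfap were the lipid carrier gene Pctp (r = 0.726, rank 3), the glucocorticoid-regulated kinase gene Sgk1 (r = 0.677, rank 10) and the sulfotransferase gene Chst5 (r = 0.645, rank 21). With Gfap, 0% of 22663 genes passed by limma with Benjamini-Hochberg adjustment and 3.33% had an unadjusted p under 0.05. Of the other 17 astrocyte genes 10 had a positive r with it, with a median of 0.0292.

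Aldh1l1 had r = -0.0727 with Gja1 and -0.148 with Slc1a3, and 0.541 with Pdgfrb (rho = 0.618, 17 rats). The last was 0.303 without the 2 libraries farthest from the median of Aldh1l1, replicates 3 and 5 of Site #1. It was 0.819 at Site #1 (5 rats), -0.0585 at Site #2 and 0.630 at Site #3 (6 rats each). By limma with Benjamini-Hochberg adjustment the adjusted p was 0.308 for Pdgfrb on Aldh1l1 and 0.298 the other way. Centring on the 4 widely expressed genes gave r = 0.751, and the pair then passed (adjusted p = 0.00285 by limma with Benjamini-Hochberg adjustment). In that scaling 13763 of 22663 genes passed with Aldh1l1 and 12538 with Pdgfrb, so the call is not particular to this pair. Median centring gave r = 0.316 (limma adjusted p = 0.849 after Benjamini-Hochberg adjustment), so the scaling moved this pair both ways. The mean of those 4 genes itself had r = -0.732 with Aldh1l1 and -0.733 with Pdgfrb. The genes with a symbol most like Aldh1l1 were the procollagen protease gene Adamts2 (r = 0.784, rank 16), the paladin gene Pald1 (r = 0.772, rank 25) and the homeobox gene Meis3 (r = 0.751, rank 41). With Aldh1l1 0% of genes passed by limma with Benjamini-Hochberg adjustment, and 13.5% had an unadjusted p under 0.05.

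Over the 10 pairs of markers 0 passed by limma in both directions, and 2 had a positive r. The median r was -0.110, and 2 pairs had an unadjusted p under 0.05, Gja1 with Slc1a3 and Aldh1l1 with Pdgfrb. The signs depended on the setting. With median centring 4 of 10 pairs were positive, and with centring on the 4 widely expressed genes 10 of 10 were, from 0.0547 to 0.817 with a median of 0.225. Without the 4 libraries high in Col1a1, described below, 8 of 10 were positive, with a median of 0.0267. Gja1 with Slc1a3 was the pair with the highest r in each of these settings.

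**Figure D4:**
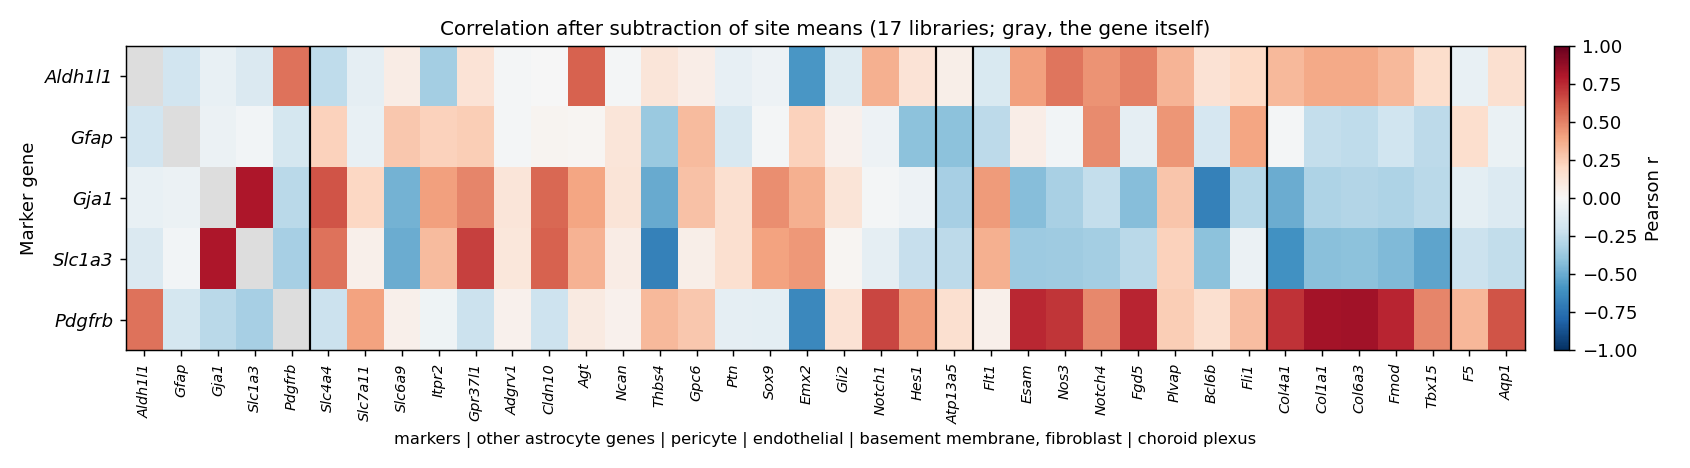
Pearson r after subtraction of site means over 17 libraries (color) between each marker gene (rows) and the markers, other astrocyte genes and vascular, fibroblast and choroid plexus genes (columns, lists divided by black lines). Gja1 and Slc1a3 share a row pattern, and Pdgfrb is highest with Col1a1 and Col6a3.

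With Pdgfrb, 298 genes passed by limma with Benjamini-Hochberg adjustment, 1.31% of 22663, of which 250 rose and 48 fell with it. Before adjustment 14.6% of genes had a p under 0.05, close to the 13.5% with Aldh1l1. In the list of basement membrane and fibroblast genes all 5 had a positive r, with a median of 0.762 against 0.0145 over all genes, and 3 of 5 passed. They were the collagen genes Col1a1 (r = 0.834) and Col6a3 (r = 0.837) and the collagen-binding proteoglycan gene Fmod (r = 0.762). These 3 genes were taken up after their library values were seen, so the count and the median describe chosen genes and test nothing. The adjusted p was 0.0104 for Col1a1 and for Col6a3 and 0.0331 for Fmod in limma with Benjamini-Hochberg adjustment. The collagen gene Col4a1 had r = 0.723 and the transcription factor gene Tbx15, which averaged under 1 CPM, r = 0.485.

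Col1a1 did not vary evenly. It was 10.95 in replicate 5 of Site #1, 10.64 in replicate 3 of Site #2, and 10.70 and 10.07 in replicates 1 and 2 of Site #3, and between 8.53 and 8.95 in the other 13 libraries. These 4 rats were the highest of their site in Pdgfrb too, with the first 2 places at Site #3. They also took the same places in Col6a3 and Fmod. The summed level of the 5 listed genes, of which Col4a1 is the most abundant and none was at 0, was 12.49, 12.03, 12.34 and 11.87 in these rats and 11.05 to 11.44 in the others.

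The calls depended on which libraries were kept. Without the 4 libraries, an alternative chosen after seeing the data, 0 genes passed with Pdgfrb and 0 of the 5 listed genes did. The r over the 13 rats was 0.759 for Col1a1, 0.612 for Col6a3 and 0.0394 for Fmod. The slope on Pdgfrb was 0.86 in place of 4.59 for Col1a1, 0.92 in place of 2.80 for Col6a3 and 0.053 in place of 3.68 for Fmod. Without replicate 5 of Site #1 alone 20 genes passed and 0 of 5 listed genes, and the adjusted p was 0.0918 for Col1a1, 0.0865 for Col6a3 and 0.216 for Fmod by limma with Benjamini-Hochberg adjustment. The r without that rat was 0.752 for Col1a1, 0.778 for Col6a3 and 0.652 for Fmod. Fmod lost its call in 8 of the 17 fits with 1 library left out. Leaving out a library that was not high in Col1a1 also moved the count, to 131 without replicate 2 of Site #1, 158 without replicate 4 of Site #3 and 816 without replicate 4 of Site #2. These 17 fits keep the same number of rats and differ only in the rat left out. The fewest genes passed without replicate 5 of Site #1. Only in that fit did 0 of the 5 listed genes pass. For the 4 libraries left out together, the part of the smaller number of rats in the lost calls was not tested.

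The genes with a symbol most like Pdgfrb were the zinc finger gene Glis2 (r = 0.901, rank 4), the adhesion receptor gene Adgra2 (r = 0.857, rank 24) and the organic anion transporter gene Slc22a6 (r = 0.853, rank 31). All 3 passed with an adjusted p of 0.0104 by limma with Benjamini-Hochberg adjustment. Rank 1 was held by ENSRNOG00000016408 (r = 0.935), which has no symbol in the tables used. Over the 13 rats Glis2 kept an r of 0.902, Slc22a6 had 0.776 and Adgra2 0.627, and none passed there.

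**Figure D5:**
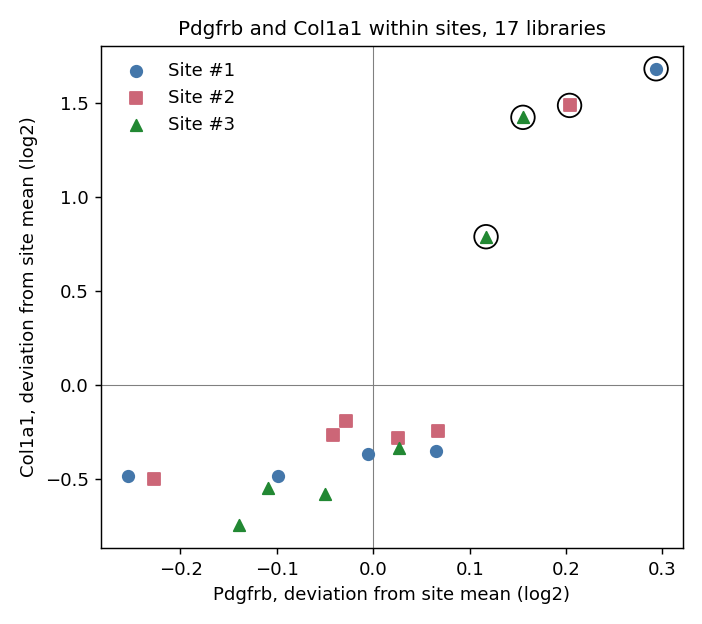
Deviation of Col1a1 from its site mean (y axis, log2 units) against that of Pdgfrb (x axis, log2 units) in 17 libraries, with the 4 libraries in which Col1a1 exceeded 10 ringed. The ringed rats lie apart in Col1a1 and at the high end of Pdgfrb; r = 0.834 and slope 4.59 over 17 rats, and r = 0.759 and slope 0.86 over the other 13.

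All 8 endothelial genes had a positive r with Pdgfrb, with a median of 0.393, and 0 of 8 passed by limma with Benjamini-Hochberg adjustment. Their summed level ran from 11.95 in replicate 4 of Site #2, the library lowest in Pdgfrb, to 12.30 in replicate 5 of Site #1, the library highest in it. Flt1 was the most abundant, and none was at 0. The highest r of the list was that of Fgd5, at 0.765. The junction gene Esam, chosen after its values were seen, had r = 0.752, and the endothelial nitric oxide synthase gene Nos3 had 0.715. Flt1, a receptor gene for vascular endothelial growth factor, had 0.0492. Over the 13 rats 7 of 8 were positive, with a median of 0.309. Fgd5 had 0.475 there, Esam 0.446, Nos3 0.211 and Bcl6b, a transcription factor gene, -0.197. Flt1 (0.251) and Fli1 (0.521, from 0.306) were higher over these rats, and the other endothelial genes were lower. The pericyte gene Atp13a5 had r = 0.162. Of the 17 other astrocyte genes 10 had a positive r with Pdgfrb, with a median of 0.0395, and 0 passed. With Gja1 and Slc1a3 the collagen list had 0 of 5 positive and medians of -0.305 and -0.444, and 0 of 5 passed with either. Over the 13 rats these were 1 of 5 and 0 of 5, with medians of -0.0549 and -0.198. The endothelial list had 2 of 8 positive with each (medians -0.304 and -0.304). Over the 13 rats it had 4 of 8 with Gja1 (median -0.0775) and 5 of 8 with Slc1a3 (median 0.117). Aldh1l1 had a positive r with 7 of 8 endothelial genes (median 0.376) and 5 of 5 of the collagen list (median 0.328), of which 0 passed. Over the 13 rats it had 7 of 8 (median 0.393) and 2 of 5 (median -0.140). Pdgfrb had 4 of 5 positive in the collagen list there (median 0.344).

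Pdgfrb itself had r = -0.268 with Gja1 and -0.336 with Slc1a3. With Slc1a3 it was -0.395 at Site #1, -0.0592 at Site #2 and -0.907 at Site #3, and with Gja1 it was -0.421, -0.0473 and -0.0904. Without replicate 5 of Site #1 the values were -0.0515 for Gja1 and -0.120 for Slc1a3, and over the 13 rats both were 0.013. Centring on the 4 widely expressed genes gave 0.110 and 0.0547, and median centring -0.48 and -0.50.

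Of the choroid plexus genes, F5 stood out in 1 rat and Aqp1 in more. F5 was 12.04 and the water channel gene Aqp1 7.74 in replicate 1 of Site #3, while F5 lay between 5.36 and 5.76 in the other 16 libraries. Aqp1 was also higher in the other 3 libraries high in Col1a1, at 6.07, 6.18 and 6.14 in replicate 5 of Site #1, replicate 3 of Site #2 and replicate 2 of Site #3, and lay between 5.28 and 5.70 elsewhere. Replicate 1 of Site #3 was the highest of its site in Pdgfrb (10.42) and the lowest in Slc1a3 (15.07). The part of choroid plexus tissue in these values was not tested. The r of Gja1 with Slc1a3 was 0.807 without this library, and Site #3 minus Site #2 kept 0 of 5 calls.

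The scaling of the libraries also moved with Pdgfrb. The median over all tested genes ran from 7.48 to 7.59 between libraries, and its r with Pdgfrb within sites was 0.833, against 0.439 for Aldh1l1, -0.0437 for Gfap, 0.0189 for Gja1 and -0.203 for Slc1a3. After median centring 8003 genes passed with Pdgfrb, and 4 of 5 in the collagen list. Centring on the 4 widely expressed genes gave 12538 genes and 5 of 5. In both scalings Col1a1 passed, while the r of Gja1 with Slc1a3 was 0.820 after median centring.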

How the data were processed

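Per the study's methods, the authors used Trimmomatic for trimming, HISAT2 for alignment to rn6 (the labels list hg19 as well) and featureCounts for counts per Ensembl gene, and DESeq2 for their own comparisons. The values the authors deposited are log2 values per gene and library, normalized between libraries by a step not given in the sources used here. They keep no counts, so differences may be understated by shrinkage and the reads per gene cannot be seen.

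Genes at 0 in all 17 libraries (9830 of 32494) were left out. limma 3.58.1 in R 4.3.3 (lmFit, eBayes with trend, two-sided p) compared each pair of sites by itself and all sites by an F test, and regressed every gene on each marker with site as a factor. p-values were adjusted by Benjamini-Hochberg over all genes tested (threshold 0.05), and the scripts were tested on simulated data. A marker pair passed if both directions did. Approximate CPM was 2 to the power of the deposited value, scaled to the same total in every library. Correlations are descriptions without a p. Genes named by rule were the markers, listed genes that passed, and for each marker the 3 genes of highest r with a symbol in the study's tables (954 of 13679 genes). Other listed genes that did not pass were named as examples, without a rule fixed in advance and in part after their values were seen. Members and lists were chosen with earlier results of these data known. Alternatives were other scalings and filters, weights, the replicate number as a block and leaving out libraries. Python 3.11.15 with pandas 2.3.3 was used for the tables and figures.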

Additional observations from a re-analysis of the deposited data

Results flagged for a closer look

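In 30 groups looked at, the 3 sites for the 5 markers, Col1a1, Col6a3, Fmod, F5 and Aqp1, 1 library lay far from the rest of its site in 10. Chance flags about 1 in 20 groups, a rate that can be read only against the 5 markers, since the other 5 genes were taken up after their library values were seen. The 5 markers gave 1 of 15, Aldh1l1 in replicate 2 of Site #3 at 10.09.

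The other 9 lay in 3 rats. Replicate 5 of Site #1 stood apart in Col1a1 (10.95), Col6a3 (7.85) and Fmod (9.98). Replicate 3 of Site #2 stood apart in Col1a1 (10.64), Col6a3 (7.84), Fmod (9.42) and Aqp1 (6.18). Replicate 1 of Site #3 stood apart in F5 (12.04) and Aqp1 (7.74). The rule was Dixon's ratio, the gap between the outermost library and its neighbour over the range of the site. At Site #3 Col1a1 was high in both replicates 1 and 2 (10.70 and 10.07), as were Col6a3 (8.33 and 7.85) and Fmod (10.31 and 9.53). With 2 high libraries the gap covers only part of the range, and none of these 3 genes was flagged there.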

How the results depend on the processing

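The count of 0 markers between sites held under every alternative run for the 3 pairs and the F test, including each left-out library. The smallest adjusted p over the pairs was 0.113, for Gfap between Sites #2 and #3 without replicate 2 of Site #3, and over the F test 0.0525, for Aldh1l1 without replicate 2 of Site #1, both by limma with Benjamini-Hochberg adjustment. Of 305 differences of single markers under the alternatives, 295 kept direction and side of the threshold and 10 turned, in differences near 0. Slc1a3 between Sites #1 and #3 (-0.011) became 0.023 with quantile normalization and ran from -0.050 to 0.028 with 1 library left out. Aldh1l1 between Sites #2 and #3 (0.0053) became -0.019 with median centring, -0.0057 with quantile normalization and -0.027 without the 4 libraries high in Col1a1, and ran from -0.020 to 0.029 with 1 library left out. Pdgfrb between Sites #2 and #3 (0.034) ran from -0.011 without replicate 4 of Site #2 to 0.075. The cause was not tested.

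Replicate numbers are shared by the sites but name different rats. On average same-numbered libraries did not deviate together (mean r of -0.0034, -0.171 and 0.0299 for the 3 pairs of sites). The r of single pairs of libraries ran from -0.459 to 0.39, from -0.334 to -0.0247 and from -0.428 to 0.198. With the replicate number as a block, 0 markers passed between any pair of sites, 0 marker pairs passed, and the genes passing with Pdgfrb went from 298 to 10, those of the collagen list from 3 to 0 and those with Gfap from 0 to 1. The slopes on Pdgfrb were no smaller with the block: 4.87 against 4.59 for Col1a1, 3.07 against 2.80 for Col6a3 and 3.97 against 3.68 for Fmod. The block gave 0 genes in place of 23 for Site #1 vs Site #3, 43 in place of 239 for Site #2 vs Site #3, and 26 in place of 115 in the F test.

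Calls with a marker depended on scaling. Centring on 4 widely expressed genes gave 1 marker pair, 13763 genes with Aldh1l1, 12538 with Pdgfrb and 5 of the collagen list; median centring gave 8003 with Pdgfrb. Both add 1 shift per library to all genes, and the part of this shift in the counts was not tested. Without a mean-variance trend, added after seeing the data, 1 gene passed with Aldh1l1, 250 with Pdgfrb and 2 of the collagen list, since Fmod did not (adjusted p = 0.0533 by limma with Benjamini-Hochberg adjustment). Without the 4 libraries high in Col1a1, also added, 0 genes passed with Pdgfrb and 0 of the collagen list, and the slopes on Pdgfrb were 0.86 for Col1a1, 0.92 for Col6a3 and 0.053 for Fmod. With 1 library left out these counts ran from 20 to 816 and from 0 (without replicate 5 of Site #1) to 4.

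Counts over all genes also moved. Site #1 vs Site #2 went from 0 to 1 with centring on 4 genes. Site #1 vs Site #3 went from 23 to 36 with all libraries in one fit and 14 without the high-Col1a1 libraries. Site #2 vs Site #3 went from 239 to 482 with the filter, 158 with the 4 genes and 29 without those libraries. The F test went from 115 to 233 with array weights, 76 with median centring, 74 with the 4 genes and 27 without those libraries. With 1 library left out they ran from 0 to 1, 9 to 30, 81 to 333 and 53 to 144. Reads per gene are not in the deposited values, and 5 or 6 rats per site limit the precision.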
